A study of Mus musculus with 39 samples.

Results

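The transcripts of 9 genes for abundant chromatin proteins, Dek, Hmgb1, Hmgb2, Hmgb3, Hmgn1, Hmgn2, Hmga1, H2afz and Set, were followed cell by cell in crypt epithelial cells of the irradiated mouse intestine. The genes were matched by name, and all 9 were found among the 25219 genes of the deposited values. They were chosen by measured values: earlier results on the same 39 cells were known, including how evenly the genes were expressed and how they moved with Mki67, so their levels and correlations are given as a description, with no test. The cells came from mice of the genotype Lgr5-EGFP-Ires-CreERT2:Rosa-lsl-tdTomato. In this line, tamoxifen activates a Cre recombinase driven from the Lgr5 locus and so marks Lgr5-expressing stem cells and their progeny permanently with tdTomato. Every mouse received tamoxifen 24 h before 10 Gy of total body irradiation, and tdTomato+ Sca1- cells were sorted 48 h after irradiation. Cells that express Sca1 were therefore left out by the sort, and the microfluidic chip captured cells of 5 to 10 µm. No unirradiated cells were analysed here, and the labels do not say which mouse a cell came from, so the 39 cells count as 1 biological sample and every spread is a spread over cells.

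DEK binds DNA, with a preference for bent and crossed structures, and acts on chromatin in replication, splicing and transcription. The HMGB proteins bend DNA with their HMG boxes, the HMGN proteins bind nucleosomes and loosen their packing, and HMGA1 binds the minor groove of AT-rich DNA. H2afz encodes H2A.Z.1, a histone variant that is exchanged into nucleosomes outside of replication, and Set encodes a histone chaperone that also inhibits protein phosphatase 2A. In renewing tissues such as the crypt, several of these proteins are known to be more abundant in dividing than in resting cells. Mki67, which encodes the Ki-67 protein of the chromosome surface in dividing cells, served as the measure of proliferation.

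In 31 of 39 cells, all 8 of the genes other than Hmga1 were at 10 FPKM or more (fragments per kilobase, a level corrected for the length of the transcript and for the reads of the cell). Hmgb1, H2afz and Set were at 10 FPKM or more in at least 38 cells, whereas Dek and Hmgb3 were below 1 FPKM in 6 and 5 cells. The 8 cells with little Dek were also below 10 FPKM in 1 to 4 of the other genes, and all 8 had Mki67 below 1 FPKM. Hmgb2 was the gene closest to Mki67, with a Spearman's rho of 0.57 over 39 cells, and Hmgn1 showed almost no relation, with 0.08.

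The 150 bases before the start site in the RefSeq promoter table are shown for 5 of these genes, to compare the gene with the deepest switch (Dek), its closest followers over cells (Hmgb1 and H2afz), the gene closest to Mki67 (Hmgb2) and a gene without a CCAAT box (Hmgn2). They are written 5′ to 3′ in the direction of transcription, with positions on GRCm38.p6, and capitals mark CCAAT or its reverse complement ATTGG. For Dek the table's start, 47106221, equals the deposited one but lies inside the RefSeq gene, which reaches to 47107530, so bases before a start farther upstream were not searched. The same holds for Mki67, whose start in the table is 135716379 and whose RefSeq gene reaches to 135716450. For Hmgb1 the table's start, 149053057, lies 20 bases upstream of the deposited one. Hmgb1, Hmga1 and Set each had 2 windows, of which the one nearest to the deposited start was used.
Dek (chr13:47106222-47106371, minus strand): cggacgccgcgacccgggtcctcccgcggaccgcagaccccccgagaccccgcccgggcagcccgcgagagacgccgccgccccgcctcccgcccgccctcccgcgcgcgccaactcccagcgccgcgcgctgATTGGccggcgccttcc
Hmgb1 (chr5:149053058-149053207, minus strand): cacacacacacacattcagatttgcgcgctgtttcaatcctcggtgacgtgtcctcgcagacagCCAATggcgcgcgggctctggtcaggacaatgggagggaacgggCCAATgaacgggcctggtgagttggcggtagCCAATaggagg
H2afz (chr3:137864337-137864486, plus strand): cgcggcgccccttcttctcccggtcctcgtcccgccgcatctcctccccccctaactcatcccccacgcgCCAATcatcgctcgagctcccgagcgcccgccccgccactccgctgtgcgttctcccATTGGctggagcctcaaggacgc
Hmgb2 (chr8:57511693-57511842, plus strand): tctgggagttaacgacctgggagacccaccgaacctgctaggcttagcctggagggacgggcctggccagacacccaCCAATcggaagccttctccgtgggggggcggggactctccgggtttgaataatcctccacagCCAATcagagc
Hmgn2 (chr4:133967992-133968141, minus strand): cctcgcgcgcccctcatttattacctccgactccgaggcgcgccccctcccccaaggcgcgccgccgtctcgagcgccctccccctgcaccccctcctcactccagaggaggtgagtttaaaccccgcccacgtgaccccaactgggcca

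In windows of 250 bases before the start, available for 9 of 9 genes, the letters CCAAT were found on either strand in 7 genes, all but Hmgn2 and Hmga1, and in 33.8% of all 32851 RefSeq promoter windows. Hmgb1 carried 3 of them within 86 bases of the start in the table, and Dek a single one ending 13 bases before the start at 47106221. The GC box letters GGGCGG were present in 8 genes, all but Hmgb1, against 32.7% of all windows. The CHR letters TTTGAA, known from genes of the late cell cycle, were found before Hmgb2, Hmgb3 and Set and at 2 places before Mki67, against 16% of all windows. None of the 9 windows held the letters TTTGGCGC, TTTCCCGC, TTTGCCGC or TTTCGCGC, which E2F factors can bind and which 1.86% of all windows held, or TATAAA, held by 12.4%. Matches of different motifs did not overlap each other. The windows of the 9 genes were rich in G and C (58.8% to 81.2%, median of all windows 52.4%), and a match is a description of these letters, not a site.

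Cells held between 398418 and 3903971 estimated counts (median 3089188) and between 2287 and 5779 genes at 1 FPKM or more. The most alike pair of cells had a Pearson correlation of 0.637, so no cell appeared to be a copy of another. Of 7 epithelial markers, Epcam, Krt8 and Krt18 were at 10 FPKM or more in all 39 cells, Cdh1 and Cldn7 in 38, Krt19 in 37 and Vil1 in 23. All 7 stromal and endothelial markers were at 0 in every cell. Of 7 immune markers, 3 reached 1 FPKM in at least 1 cell, and their highest sum was 112 FPKM, in cell 51. Cells 9 and 79 had the fewest genes detected (2287 and 2335).

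Among the genes with uniform expression, H2afz had the highest mean of the set, 1595 ± 698 FPKM (SD, n = 39 cells). It was lowest in cell 92 at 176 FPKM, had a median of 1611 FPKM and was highest in cell 76 at 2875 FPKM. Hmgb1, the DNA-bending protein that is also released from damaged cells as an alarm signal, ranged from 81.7 FPKM in cell 9 over a median of 1329 FPKM to 2536 FPKM in cell 65. Neither gene was near 0 in any cell. Set ranged from 3.79 FPKM in cell 9 to 2406 FPKM in cell 72, with a median of 1400 FPKM. Cell 9, the shallowest cell, was alone below 10 FPKM of Set. These 3 genes met the limit used for uniform expression, at least 10 FPKM in at least 38 of 39 cells, as 3 of the 8 genes tested, Hmga1 having a mean below 1 FPKM. The limit was met by 2.93% of the 9804 genes whose mean was 1 FPKM or more, and by 17.2% of the 1639 genes whose mean was 50 FPKM or more, as it was for all 8.

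The order of the 3 highest genes was not fixed over cells. H2afz was above Hmgb1 in 28 of 39 cells, and Hmgb1 was above Set in 23 of 39, so these neighbours differed by less than their spread over cells. Set was above Hmgn2 in 35 of 39 cells, with a mean 2.39 times as high, but its median log2 difference of 1.36 was also within the SD over cells of 1.93. The same held for every other pair of neighbours in the order of means down to Hmgb3 and Dek, and Dek was above Hmga1 by more than that spread (median 5.67, SD 2.59).

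Between the uniform and the switching genes lay Hmgn2, Hmgb2 and Hmgn1, each below 1 FPKM in 2 cells. Hmgn2, a nucleosome-binding protein, ran from 0 in cell 79 over a median of 552 FPKM to 1242 FPKM in cell 54, and only cells 5 and 79 were below 10 FPKM. Hmgb2, the closest paralogue of Hmgb1, ran from 0 in cell 48 over a median of 208 FPKM to 350 FPKM in cell 22. It was below 10 FPKM in 5 cells. Hmgn1, the paralogue of Hmgn2, ran from 0 in cell 9 over a median of 138 FPKM to 340 FPKM in cell 56, with 3 cells below 10 FPKM. Hmgn2 was above Hmgb2 in 31 of 39 cells, whereas Hmgb2 was above Hmgn1 in only 26, Hmgn1 above Hmgb3 in 23 and Hmgb3 above Dek in 21.

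Among the 8 genes, Dek was below 1 FPKM in the most cells. It was listed at 0 in 6 cells, had a median of 76.8 FPKM and reached 278 FPKM in its highest cell (mean 83.6 ± 71.8, SD, n = 39 cells). It reached 1 FPKM in 33 of 39 cells (84.6%, exact Clopper-Pearson 95% interval 69.5 to 94.1, counting error only). Hmgb3, an HMG box protein of stem and progenitor cells in blood, reached 1 FPKM in 34 cells (87.2%, 72.6 to 95.7). It ran from 0 in cell 5 over a median of 77.5 FPKM to 516 FPKM in cell 30, and its SD was 111% of its mean, against 43.8% for H2afz. Dek and Hmgb3 met the limit used for switching, below 1 FPKM in at least 4 cells, as 2 of 8 genes tested. That limit was met by 90.8% of the 9804 genes and by 52.2% of the 1639, so switching by itself was the usual behaviour of genes in these libraries. Hmga1 also met it and is described apart. Without cells 9 and 79 and with the limit at 36 of 37 cells, Hmgn1 and Hmgn2 joined the uniform genes, which made 5 of 8, as were 4.38% of the 9804 genes and 25.6% of the 1639. Hmgb3 was then below 1 FPKM in 3 cells only, whereas Dek was still below it in 5 of 37.

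**Figure D1:**
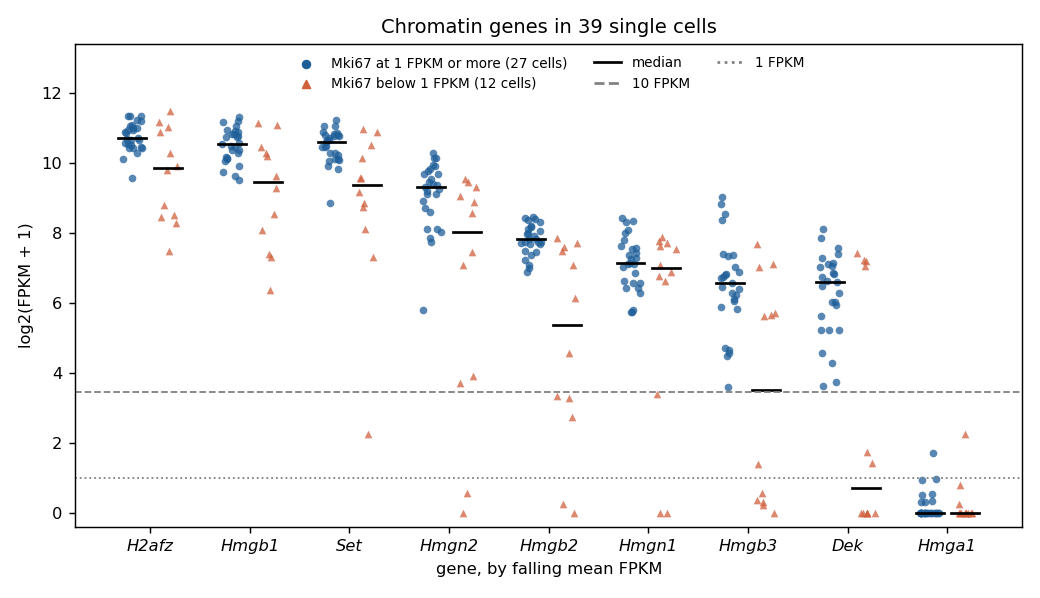
Level of each gene as log2(FPKM + 1) in 39 cells, with 1 point per cell, split by Mki67 at 1 FPKM or more (27 cells, circles) or below (12 cells, triangles), medians as black bars. All values below 10 FPKM (dashed line) of the 8 genes other than Hmga1 are triangles, and H2afz and Hmgb1 stay above that line in all 39 cells.

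The lowest values of the different genes fell in the same cells. The 8 genes gave 312 values in 39 cells, of which 25 were below 10 FPKM. Of these, 8 were values of Dek itself, and the other 17 all lay in the same 8 cells in which Dek was below 10 FPKM (cells 5, 9, 16, 48, 67, 79, 92 and 96). Dek did not exceed 2.36 FPKM in these cells and was 11.3 FPKM or more in the other 31, cell 48 being the highest below the limit and cell 63 the lowest above it. Within the 8 cells, between 3 and 6 of the 8 genes were still at 10 FPKM or more (median 5). In cell 9 the genes below 10 FPKM were Dek, Hmgb2, Hmgb3, Hmgn1 and Set, and in cell 79 they were Dek, Hmgb3, Hmgn1 and Hmgn2. Cells 16 and 48 shared the same 3, Dek, Hmgb2 and Hmgb3. They were Dek and Hmgb2 in cell 92 and Dek and Hmgb3 in cell 96, so no other gene was below 10 FPKM in all 8 cells.

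The genes differed in how low they were in these 8 cells. Hmgb3 had a median of 0.384 FPKM there and 105 FPKM in the other 31 cells. Hmgb2 had medians of 8.89 and 213 FPKM, although cell 96 was at 231 FPKM. Hmgb3 was below 10 FPKM in 6 of the 8 cells and overlapped the other cells through the remaining 2. Hmgb2 was below 10 FPKM in 5 of the 8, and cell 96 alone reached the range of the other cells, whose lowest value was 117 FPKM. H2afz had medians of 405 and 1880 FPKM, and 29 of the 31 other cells were above all 8. Set had medians of 442 and 1538 FPKM, with 30 of the 31 other cells above all 8. Hmgb1 had medians of 321 and 1480 FPKM, with 23 of the 31 above all 8. These 3 genes were lower in the 8 cells but still well above 10 FPKM, except Set in cell 9. Hmgn1 had medians of 102 and 150 FPKM and overlapped most, with 7 of 31 cells above all 8.

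On the log2(FPKM + 1) scale, which understates the difference of low genes, the 7 genes other than Dek were lower in the 8 cells by at least 1 in each case. Hmgb3 fell by 4.78 on the log2 scale and H2afz by 1.86. Of the 9803 other genes whose mean was 1 FPKM or more, 30.4% were lower by at least 1, as were 58.4% of the 1638 whose mean was 50 FPKM or more and whose median difference was -1.30 against -2.54 for the 7 genes. The cells were chosen by Dek, and 71.8% of the 9803 genes and 83.9% of the 1638 had a lower mean log2 value in them. In the 31 other cells, all 7 genes were at 10 FPKM or more in every cell, which was also true of 4.09% of the 9803 genes and of 24.2% of the 1638.

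Depth and marker genes moved with this split as well. The 8 cells had 2287 to 4574 genes detected (median 3337.5) and the other 31 had 3204 to 5779 (median 4669). Estimated counts overlapped widely, with medians of 2908834 and 3261976. Of the 7 stem cell markers, 1 had a higher mean log2 value in the 8 cells, and their summed level was 2.78 to 2390 FPKM there against 34.2 to 4298 FPKM. All 5 tuft cell markers were higher in the 8 cells through cells 79 and 96, with sums of 2040 and 4773 FPKM against at most 19.6 FPKM in any other cell. All 6 goblet markers were higher as well, at 33.7 to 26749 FPKM against 11.3 to 41329 FPKM, with cell 5 the highest of the 8, and the enterocyte sum of 41006 FPKM in cell 79 compared with at most 1247 FPKM in the other 31 cells. Of the 7 Paneth markers 4 were higher, at 161 to 4289 FPKM against 1.31 to 12595 FPKM. The enteroendocrine sum did not exceed 1.38 FPKM, with Chga, Neurog3 and Tac1 at 0 in every cell, and immune markers were at 0 in the 8 cells. Of 10 widely expressed genes, 2 (Actb and B2m) were higher in the 8 cells, and their summed level was 1501 to 21732 FPKM (median 16521) against 10704 to 23764 FPKM (median 15669). Among the others, Pgk1, a glycolytic enzyme, fell by 2.78 on the log2 scale, Ppia fell by 1.53 and Gapdh fell by 0.99. The part of depth and of these markers in the low Dek values was not tested. Without cells 5, 79 and 96, 5 of 36 cells were below 10 FPKM of Dek, and all 5 were below 1 FPKM of Mki67. With counts thinned to 600000 reads per cell, which left out cell 9, 7 of 38 cells were below 10 FPKM of Dek.

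**Figure D2:**
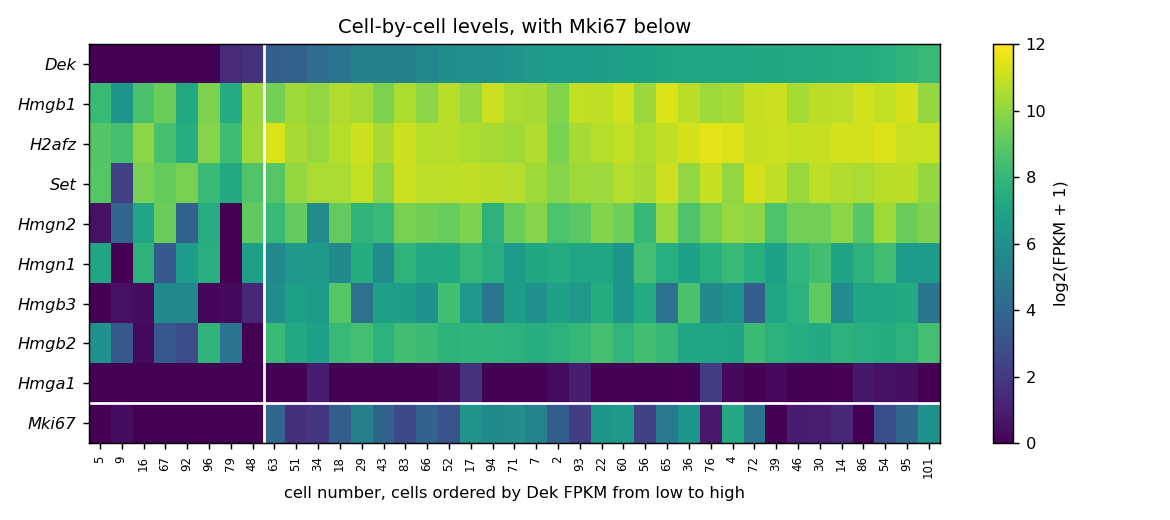
Levels as log2(FPKM + 1), in colour, of the 9 genes and Mki67 (rows) in 39 cells (columns) ordered by Dek. The white vertical line separates the 8 cells below 10 FPKM of Dek, in which Mki67 is at 0.333 FPKM or less and H2afz is at 176 FPKM or more.

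Mki67 itself was at 1 FPKM or more in 27 cells and below in 12, and it reached 158 FPKM in cell 4. All 27 cells with Mki67 had all 8 genes at 10 FPKM or more, as was true of 4.2% of the 9803 genes other than Mki67 and of 24.8% of the 1639 whose mean was 50 FPKM or more. Among the 12 cells without it, Dek was at 10 FPKM or more in 4, Hmgb3 in 6, Hmgb2 in 7, Hmgn1 in 9, Hmgn2 in 10, Set in 11, and Hmgb1 and H2afz in all 12. The 4 cells without Mki67 that kept Dek (39, 46, 76 and 86) kept all 8 genes, with Dek between 133 and 170 FPKM. In cells 39 and 86, with Mki67 at 0.0251 and 0.0225 FPKM, Dek was at 146 and 170 FPKM and Hmgb2 at 208 and 191 FPKM. Cells 46 and 76 were just below the limit, at 0.900 and 0.848 FPKM of Mki67. In the deposited FPKM, low Dek thus came with low Mki67, but low Mki67 did not always come with low Dek. With FPKM rescaled to equal sums per cell, 9 cells were below 10 FPKM of Dek and 8 of them were below 1 FPKM of Mki67, so 1 cell with Mki67 was then an exception.

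The difference between cells with and without Mki67 was largest for Dek among the 8 genes. Dek had a median of 96.1 FPKM in the 27 cells and 0.832 FPKM in the 12, a difference in mean log2(FPKM + 1) of 3.57. Hmgb3 (3.03), Hmgb2 (2.97) and Hmgn2 (2.61) followed, and Set (1.64), Hmgb1 (1.36), Hmgn1 (1.36) and H2afz (1.08) differed less. In each gene the ranges of both groups overlapped. All 8 genes were higher by at least 1 in the cells with Mki67. So were 22.1% of the 9803 genes other than Mki67 and 43.7% of the 1639 whose mean was 50 FPKM or more. The median difference was 2.12 for the 8 genes and 0.37 for all 9803, most of which had means below 50 FPKM. The cells with Mki67 also had more genes detected, 3204 to 5779 (median 4695) against 2287 to 5242 (median 3947), and its part in these differences was not tested.

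Over the 39 cells, the genes were ordered by their rank correlation with Mki67 as follows. Hmgb2 came first with a rho of 0.57, at place 33 of 9803 genes. Hmgn2 followed with 0.46, then Hmgb1 and H2afz with 0.39 each and Dek and Set with 0.37 each. Hmgb3 had 0.24 and Hmgn1 0.08, so the HMGN genes lay at different places in this order. Only Hmgb2 reached the limit of 0.5, as 1 of 8 genes, and Hmgn2 was the nearest below it. That limit was reached by 1.04% of all genes tested. The lower values depended on a few cells: without cells 9 and 79, Hmgb3 had 0.14 and Hmgn1 -0.04, and without cells 5, 79 and 96, Hmgb3 had 0.08, Hmgn1 0.02, Dek 0.25 and Set 0.24. Hmgb2 had 0.51 and 0.55 in those settings. The median of the 8 genes was 0.38, against 0.09 over all 9803 genes and 0.10 over the 1639 genes of the highest means. The points of these correlations share library preparation and depth: Mki67 had a rho of 0.53 with the number of genes detected in a cell and of 0.01 with the total count. With the number of genes detected held fixed, Hmgb2 had 0.52 and H2afz 0.37, followed by Hmgb1 (0.34), Hmgn2 (0.31), Set (0.31), Dek (0.28), Hmgn1 (0.14) and Hmgb3 (0.06). H2afz and Hmgb1 then stood above Hmgn2, and the HMGN genes lay closer together.

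**Figure D3:**
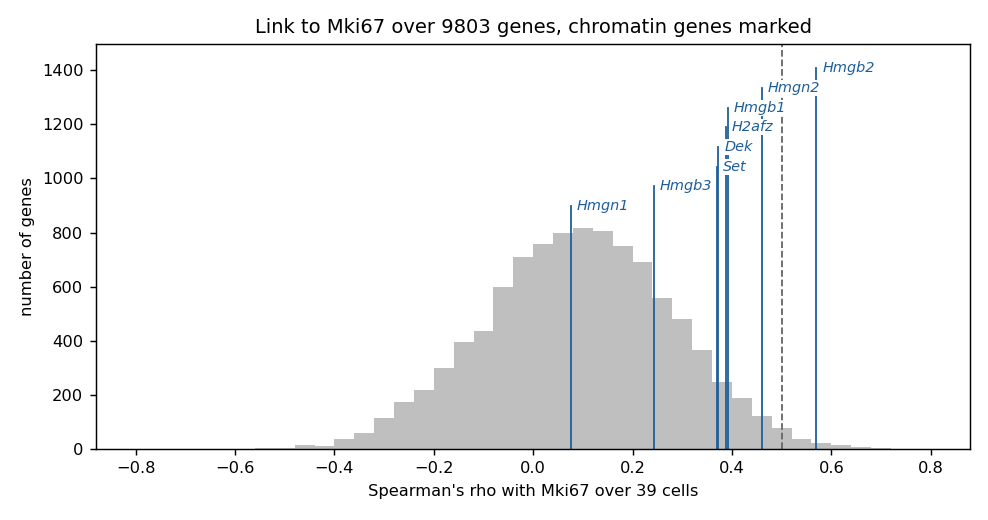
Number of genes (vertical axis) by Spearman's rho with Mki67 over 39 cells (horizontal axis) for 9803 genes whose mean was 1 FPKM or more, with 8 genes of the set marked by lines. Hmgb2 at 0.57 lies beyond the limit of 0.5 (dashed), 6 lie between 0.24 and 0.46, and Hmgn1 at 0.08 lies in the middle of all genes.

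Within the 27 cells with Mki67 at 1 FPKM or more, the correlations were weak. Hmgb2 had a rho of 0.17 there, Dek 0.16 and Hmgn2 0.21, the highest of the 8, while Hmgb3 had -0.29. Hmgb2 lay between 117 and 350 FPKM in all 27 cells while Mki67 rose to its highest values. For each of the 8 genes, rho was higher over the 39 cells, which include the 12 without Mki67, than within the 27. On log2(FPKM + 1), Pearson's r of Dek with Mki67 was 0.57, above the 0.55 of Hmgb2.

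**Figure D4:**
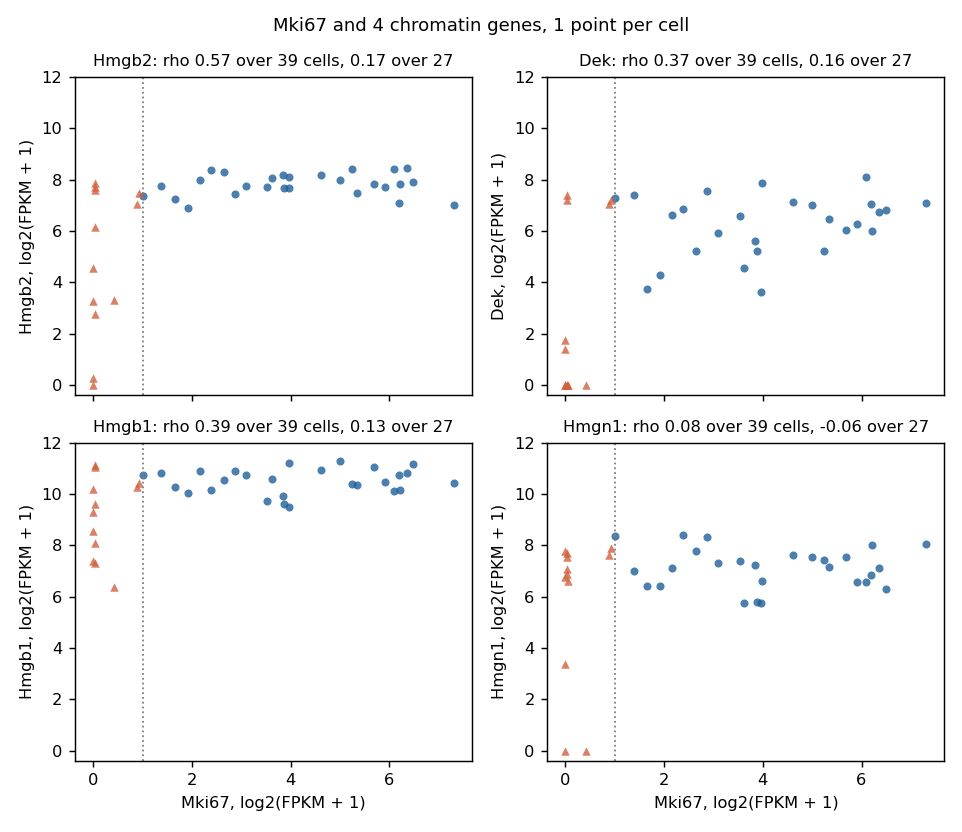
Level of Hmgb2, Dek, Hmgb1 and Hmgn1 (vertical axes) against Mki67 (horizontal axes), all as log2(FPKM + 1), with 1 point per cell, circles for the 27 cells with Mki67 at 1 FPKM or more and triangles for the other 12. Low values of all 4 genes are triangles at the left edge, and over the circles rho lies between -0.06 and 0.17.

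The genes were also compared with each other. All 28 pairs of the 8 genes had a rho above 0 over the 39 cells, with a median of 0.44 and a range of 0.16 to 0.73, and 10 pairs reached 0.5. Without cells 9 and 79, 6 pairs reached it, the median was 0.36 and the range was 0.04 to 0.69. Over all 1342341 pairs of the 1639 genes whose mean was 50 FPKM or more, the median in the 39 cells was 0.07, 65.5% were above 0 and 0.605% reached 0.5. In the 37 cells without cells 9 and 79, the median over all those pairs was 0.02 and 0.339% reached 0.5. The highest pairs of the 8 genes were Dek with Hmgb1 (0.73), Dek with H2afz (0.72) and Hmgb1 with Set (0.68). Hmgb3 with Hmgn1 (0.16) and Hmgb2 with Hmgn1 (0.18) were the lowest. Within the 31 cells with Dek at 10 FPKM or more, the median fell to 0.17, the range was -0.28 to 0.51, and 1 pair, Dek with Hmgb1, reached 0.5. Over all pairs of the 1639 genes, the median was 0.02 in those cells and 0.454% reached 0.5. The values of a cell share its depth.

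Among 4916 genes whose mean was 10 FPKM or more, the nearest to Dek were Hmgb1 (0.73), H2afz (0.72), Ptma (0.66), Hmgn2 (0.64) and Cdc23 (0.64). Thus 3 of its 5 nearest genes belonged to the set, which held 7 of the 4916. The rest of the set lay further down, with Set at place 43, Hmgb3 at 92, Hmgn1 at 203 and Hmgb2 at 614. Ptma encodes prothymosin alpha, an acidic protein that binds histone H1, and Cdc23 a subunit of the anaphase-promoting complex. Hmgb2 had other neighbours: Ckap5 (0.62), Znhit3 (0.61), Sgol1 (0.61), Kif2c (0.60) and Smc2 (0.60), none of which belonged to the set. Mki67 was at place 10 for Hmgb2 and at place 366 for Dek. The nearest genes to Mki67 were Sf3b2 (0.74), Smc2 (0.70), Ncapg (0.70), Cks2 (0.68) and Pbk (0.66), of which Smc2 also stood among the neighbours of Hmgb2. Dek was at place 425 for Hmgb2, and the rho of this pair was 0.31, so the nearest genes of Dek and Hmgb2 were not the same.

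Hmga1 was uncertain in these data. Its row (chromosome 17, 27556574 to 27563672) was below 1 FPKM in 37 cells, with a highest value of 3.72 FPKM and 83.9 estimated counts over all cells, none of them whole in the 11 cells that had any. Counts that were not whole also occurred for Dek, Hmgb1, Hmgb2, Hmgb3, H2afz and Set, in 6 to 21 cells. How the counting arrived at them is not given in the sources used here, and a near-absence of Hmga1 transcripts was not shown.

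Dek overlaps Kdm1b, a gene on the opposite strand with a mean of 5.35 FPKM, by 513 bases at its 3′ end, and whether the counting used strand is not given in the sources used here.

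Relatives of the set did not all behave alike. Of 10 other HMG box and nucleosome-binding genes tested, 2 reached a rho of 0.5 with Mki67, Ssrp1 (0.51), the HMG box subunit of the FACT chaperone, and Ubtf (0.51), a factor of ribosomal RNA genes. Hmgn5 had a mean of 36.6 FPKM and a rho of 0.43. Hmga2, the relative of Hmga1, was at 1 FPKM or more in 16 cells (mean 6.74 FPKM), and Hmgn3 in 1. H2afv encodes H2A.Z.2, the near-identical paralogue of the H2afz product, and differed from it: it was at 1 FPKM or more in 27 cells, had a mean of 28.4 FPKM and a rho of 0.02 with Mki67 and 0.01 with Dek. None of 8 histone variant and linker histone genes and none of 10 genes of the H2A.Z exchange complexes reached 0.5.

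Among 19 histone chaperones tested, the group to which Set belongs, 2 reached 0.5 with Mki67, Anp32b (0.64) and Asf1b (0.52). Ptma (mean 2306 FPKM) and Npm1 (1829 FPKM), acidic chaperones, were above all of the 9 genes in mean level and had a rho of 0.36 and 0.34. Of 14 heterochromatin and DNA methylation genes, Cbx5 (0.51) and Ezh2 (0.54) reached the limit, and Cbx3, a heterochromatin protein with a mean of 1074 FPKM, had 0.42 with Mki67 and 0.58 with Dek. The 23 proliferation markers had 9 genes at 0.5 or more and a median of 0.45, above the 0.38 of the 8 genes, with examples in Plk1 (0.65) and Ccnb1 (0.61). The 10 widely expressed genes, such as Actb and Ppia, had a median of 0.05 and none at 0.5, and 6 of them met the limit for uniform expression.

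The study divided these cells into Cluster 1 and Cluster 2 by stem cell signature genes, and the division was rebuilt here by complete linkage on 98 of them, none of which belongs to the set. It gave 22 cells with a median of 1185 FPKM of Olfm4, a stem cell marker, and 17 with 5.38 FPKM. All 22 cells of the first group had all 8 genes at 10 FPKM or more, and the 8 cells with little Dek all lay in the second. In the first group, 5.52% of the 9804 genes and 32.3% of the 1639 were at that level in every cell. Dek had medians of 130 and 11.3 FPKM, and Hmgn2 of 700 and 232 FPKM. H2afz, with 1928 and 1117 FPKM, and Hmgn1, with 145 and 107 FPKM, differed less. All 8 genes were higher by at least 1 in mean log2(FPKM + 1) in the first group, as were 19.2% of the 9804 genes and 43.1% of the 1639. Mki67 was at 1 FPKM or more in 18 of 22 and in 9 of 17 cells. So 4 cells of the first group kept all 8 genes with Mki67 below 1 FPKM, though cells 46 and 76 were at 0.900 and 0.848 FPKM. No test was made, since the division came from the same cells.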

How the data were processed

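Single crypt epithelial cells were captured on the Fluidigm C1 system, and SMARTer cDNA and Nextera XT libraries without molecular identifiers were sequenced as paired-end reads. The submitters' processing notes name bcl2fastq 1.8.4, TopHat2 2.0.14 and the build mm10 (GRCm38). The counting program and annotation release are not given in the sources used here. For each gene and cell, the authors deposited an FPKM value and an estimated count, and 17.8% of the estimated counts above 0 were not whole (tolerance 0.001). FPKM were used as deposited, on log2(FPKM + 1) for differences. Estimated counts served for depth and, rounded, for thinning to 600000 reads.

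The 39 cells formed 1 group of 1 biological sample, so no p-value was computed. Doublets were not called, since capture sites were inspected by microscope. Amplified reads are not molecules, and a lost transcript appears as 0. The genes, lists, limits and rules were chosen with earlier results of these data known. Named genes were the 9 genes, Mki67, the 5 nearest genes by rho to Dek, Hmgb2 and Mki67, and up to 4 genes a list by mean level, with Hmga2, Hmgn3, Hmgn5 and H2afv. Ubtf, Asf1b, Cbx5, Ezh2, Plk1, Ccnb1, Pgk1, Gapdh and B2m were outside this rule and were named after their values were seen. Promoter sequences came from RefSeq (GRCm38.p6), with H2afz matched as H2az1 by its Entrez identifier. Alternatives left out cells, changed limits, scale, depth or filter. The correlation code was run on simulated counts, where 199 of 200 planted genes (99.5%) and 7 of the other genes among 9804 reached a rho of 0.5. The planted links were strong, and the simulation had no cell quality shared by genes and no transcript loss beyond sampling. It was a check of the code only and gives no error rate for these data. The tools were scipy 1.17.1, numpy 2.4.6, pandas 2.3.3 and matplotlib 3.10.9 under Python 3.11.15.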

Additional observations from a re-analysis of the deposited data

How the results depend on the processing

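Over the alternatives, 3 genes were uniform except without cells 9 and 79, with 5, and without cells 5, 79 and 96, with 4. Of the 8 genes, 2 switched (3 with Hmga1), except without cells 9 and 79 and without cells 5, 79 and 96, where only Dek did (2 with Hmga1). The gene linked to Mki67 at a rho of 0.5 was Hmgb2 alone, except that 2 genes reached it with FPKM rescaled to equal sums per cell (Hmgn2 joined, 1.20% of all genes), 2 with Pearson's r on log2(FPKM + 1) (Dek joined, 1.14% of all genes), 5 with Pearson's r on log2(FPKM + 0.1) (1.89%), and 0 within the 27 cells with Mki67 at 1 FPKM or more (0.49%). The cause of these shifts was not tested. The median rho of the 8 genes was between 0.26 and 0.51 over the alternatives but for those 27 cells, where it was 0.14, against 0.03 over all genes. Without cells 5, 79 and 96, 5 cells were below 10 FPKM of Dek, and 5 of these were below 1 FPKM of Mki67. With FPKM rescaled, 9 cells were below 10 FPKM of Dek and 8 of them below 1 FPKM of Mki67. Of 72 single-gene correlations over 9 alternatives, 65 stayed on their side of 0.5, 6 rose past it and 1 fell below it. The 27 cells, the omission of cells 5, 79 and 96, the counts of cells by Dek with their alternatives, and the shares of all genes and pairs beside the counts within groups of cells were added after seeing the data.

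A transcript at 0 in a cell is not shown to be absent, and 1 cell held only 398418 estimated counts. Mki67 was below 1 FPKM in only 12 cells, and it was at 0 in 4 of them.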
